A study of Zea mays with 18 samples.

Results

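The genes described here are 5 maize gene models that encode enzymes of carotenoid synthesis and cleavage, out of 45260 features and 43484 gene models in the deposited table. They were chosen by identifier, and each identifier came with its gene name: y1 (Zm00001d036345), lcyE (Zm00001d011210), crtRB1 (Zm00001d048469), zep1 (Zm00001d003513) and ccd1 (Zm00001d048373). The rule that picks them is a list of identifiers and uses no threshold on a measured value. PolyA RNA was sequenced from seedlings of B73, the inbred line behind the maize reference genome. Seeds were germinated in the dark for 3 days, and the seedlings were then grown for 48 h in nutrient solution with 1 nM epibrassinolide (EBL), a brassinosteroid hormone, or as controls. Primary roots, shoots (stem, apex and coleoptile together) and the 1st leaf were collected separately, so the 18 samples form 6 groups of 3 biological replicates: control roots, EBL roots, control shoots, EBL shoots, control leaves and EBL leaves.

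Each group has a single value per gene, in RPKM (reads scaled to the length of the feature and to the number of mapped reads), into which the authors combined its replicates. No replicate error can be attached to a value, and the depth behind it is unknown. The columns summed to between 934116 RPKM in control shoots and 1599725 in EBL leaves. The labelled organs were not checked against marker genes, because no marker symbol on the list could be tied to an identifier of the table. In whole organs, fewer cells of a type and less RNA per cell cannot be told apart.

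Carotenoids are plastid pigments that collect light and protect chlorophyll in green tissue, and their oxidised products are the precursors of abscisic acid and strigolactones. Phytoene synthase, encoded by y1, makes the first carotenoid, phytoene, and y1 is the locus that makes maize kernels yellow. Downstream, lycopene epsilon cyclase (lcyE) directs lycopene into the branch that ends in lutein. In the other branch, the beta-carotene hydroxylase crtRB1 makes zeaxanthin, which zeaxanthin epoxidase (zep1) turns into violaxanthin. The dioxygenase encoded by ccd1 cleaves carotenoids into apocarotenoids. Both lcyE and crtRB1 are known as loci whose variants alter the provitamin A content of maize kernels.

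All 5 genes stood highest in leaves, lower in shoots and lowest in roots. For each of them neither leaf value overlapped either shoot value and neither shoot value overlapped either root value. Of the 26794 features that reached 1 RPKM in at least 1 column, the set used for all tests, 9.92% showed this order without overlap. The size of the step differed between the genes. On the log2(RPKM + 1) scale of the control columns, lcyE and zep1 had their larger step between roots and shoots, and crtRB1 and ccd1 had it between shoots and leaves. The steps of y1 were 2.23 from roots to shoots and 1.92 from shoots to leaves, an order that turned under median-ratio scaling (2.30 and 2.57).

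**Figure D1:**
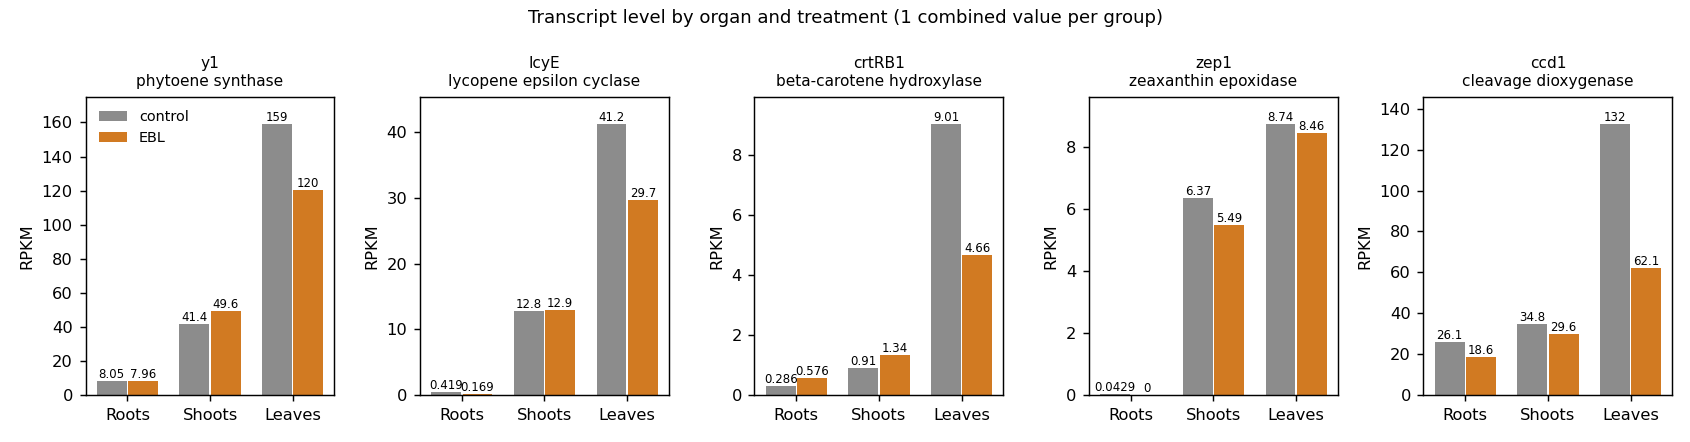
Level of each gene in RPKM (linear axes from 0, different in each panel) in roots, shoots and leaves, with 1 bar for the control column and 1 for the EBL column, and the value printed above it. In every panel both leaf bars stand above both shoot bars, and both shoot bars above both root bars.

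The phytoene synthase gene y1 was the most abundant of the 5 in shoots and leaves, per length of transcript. Root values were 8.05 RPKM in control and 7.96 in EBL, shoot values 41.4 and 49.6, and leaf values 159 and 120.3. In control leaves 856 of the 26794 features stood higher, and in control roots 14688 did. The control leaf value was 19.7 times that of control roots and 3.84 times that of control shoots.

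The branch gene lcyE had the widest range among those measured above 0 in every column, 243-fold between its highest and its lowest value. Its control and EBL values were 41.2 and 29.7 RPKM in leaves and 12.8 and 12.9 in shoots. In roots they were 0.419 and 0.169 RPKM, and 25108 and 25703 features stood higher. The lcyE transcript was thus close to the bottom of the measured range in roots. It was in the upper part of that range in control leaves, where 87.4% of features stood lower.

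The hydroxylase gene crtRB1 was low in most columns. Its control and EBL values were 0.286 and 0.576 RPKM in roots and 0.910 and 1.34 in shoots. In leaves they were 9.01 and 4.66 RPKM, the highest of its 6 values. It was the lowest of the 5 genes in both shoot columns and in EBL leaves, while zep1 was lower in both root columns and in control leaves. The ratios of crtRB1 in roots and shoots rest on low values.

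The epoxidase gene zep1 was the gene with the most similar levels in shoots and leaves. Control and EBL values were 6.37 and 5.49 RPKM in shoots and 8.74 and 8.46 in leaves. In roots it was at 0.0429 RPKM in control and listed at 0 in EBL, so no fold is given for EBL roots. An exact 0 in such a table can be a failed estimate.

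The cleavage gene ccd1 was the most evenly spread of the 5 and the most abundant of them in roots. Root values were 26.1 RPKM in control and 18.6 in EBL, shoot values 34.8 and 29.6, and leaf values 132 and 62.1. Its highest value was 7.13 times its lowest, against 20.0 for y1. In control roots 75.7% of features stood lower than ccd1, compared with 45.2% for y1, 6.29% for lcyE and 5.07% for crtRB1.

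Differences between organs were tested with limma on log2(RPKM + 1) values in an additive model of organ and treatment. The control and EBL columns served as the pair of values of an organ. The error is thus how far the differences between organs disagree between treatments, and not the spread of replicates. All 5 genes were higher in leaves than in roots at an adjusted p under 0.05, against 21.5% of all features tested. The difference was 4.80 ± 0.17 (log2, SE) for lcyE, 3.95 ± 0.19 for y1, 3.23 ± 0.14 for zep1, 2.40 ± 0.32 for crtRB1 and 1.99 ± 0.23 for ccd1. Their limma adjusted p-values (Benjamini-Hochberg over all features) lay between 8.00e-05 for lcyE and 0.00174 for crtRB1. The median difference of the 5 genes was 3.23, while that of all features was -0.68, since most features had lower RPKM in leaves. With 0.1 added in place of 1, lcyE stood at 6.55, zep1 at 6.19, y1 at 4.09, crtRB1 at 3.69 and ccd1 at 2.04. There zep1 passed y1, so the sizes for genes low in roots, and their order, depend on the added value. The zep1 difference also uses the listed 0 of EBL roots.

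All 5 genes were also higher in leaves than in shoots, against 21.8% of features. The difference was 1.83 ± 0.32 for crtRB1, 1.59 ± 0.19 for y1, 1.47 ± 0.23 for ccd1 and 1.38 ± 0.17 for lcyE, with limma adjusted p-values from 0.00169 to 0.00546. For zep1 it was 0.47 ± 0.14 (limma adjusted p = 0.0328), and that call was lost after scaling all columns to an equal gene-model total (0.18, limma adjusted p = 0.455), with a pseudocount of 0.1 (0.53, limma adjusted p = 0.107) and without the minimum of 1 RPKM (0.47, limma adjusted p = 0.0689). The difference was larger under median-ratio scaling (1.09, limma adjusted p = 0.00307) and quantile normalization (0.97, limma adjusted p = 0.00345). The background moved with the scaling too. Of 26794 features 5838 were called higher in leaves than in shoots, 8983 under median-ratio scaling and 4718 with an equal gene-model total. For leaves against roots those counts were 5765, 8641 and 4938.

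Between shoots and roots lcyE, zep1 and y1 passed the test, and crtRB1 and ccd1 did not. The lutein-branch gene lcyE was higher in shoots by 3.42 ± 0.17 (log2, SE), zep1 by 2.76 ± 0.14 and y1 by 2.36 ± 0.19, with limma adjusted p-values from 0.000295 to 0.000881. The differences of 0.57 ± 0.32 for crtRB1 and 0.52 ± 0.23 for ccd1 did not pass, at limma adjusted p = 0.226 and 0.143. So 3 of the 5 genes were called, against 18% of features. With a pseudocount of 0.1 the same 3 genes passed, at 5.65 for zep1, 5.11 for lcyE and 2.49 for y1, in another order. The 3 organ contrasts share columns and are not independent of each other.

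**Figure D2:**
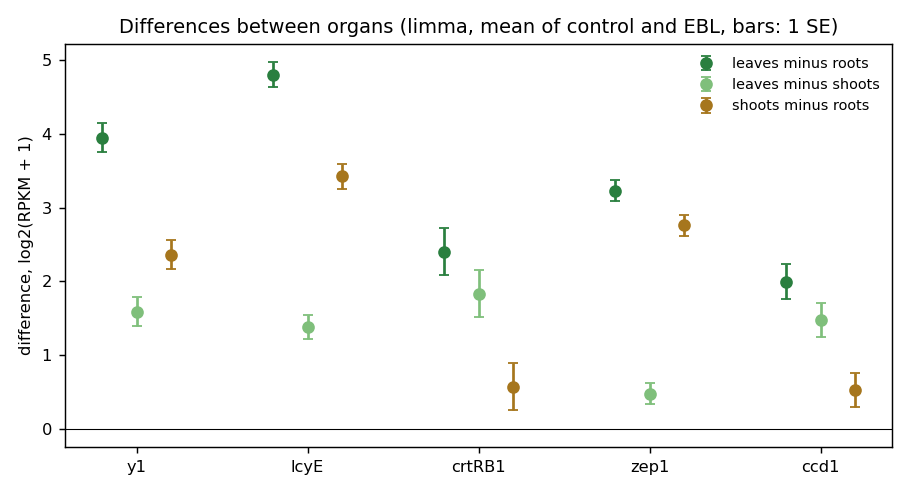
Difference between organs for each gene on the log2(RPKM + 1) scale, averaged over control and EBL columns, with bars of 1 SE from limma. The shoots minus roots points of lcyE, zep1 and y1 lie above 2, and those of crtRB1 and ccd1 lie below 1.

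In the control columns alone, where a difference was called when it was at least 2-fold on the log2(RPKM + 1) scale, 5 of the 5 genes were higher in leaves than in roots, against 15.9% of features. From shoots to leaves 4 of the 5 were called higher, against 14.9%, with zep1 (0.40) the exception. From roots to shoots 3 were called higher, against 12.2%. In the EBL columns the steps from shoots to leaves were smaller for ccd1, at 1.04 against 1.90 in control, for crtRB1, at 1.27 against 2.39, for y1, at 1.26 against 1.92, and for lcyE, at 1.15 against 1.62. The step of zep1 was 0.55 in EBL and 0.40 in control.

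The second question was what EBL did to these transcripts in each organ. In leaves all 5 genes had a lower RPKM in EBL than in control, against 51.6% of the 25889 features compared there, except that zep1 was level (5.95e-05, log2) under median-ratio scaling. The median log2 difference of the 5 was -0.46 and that of all features was -0.01. Only ccd1 was at least 2-fold lower, against 0.993% of features. With 1 value per group there is no test of a difference within an organ, and lower or higher here describes those values.

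In leaves the cleavage gene ccd1 stood at 132 RPKM in control and 62.1 in EBL, a log2 difference of -1.08, and 191 of the 25889 features had a lower one. For crtRB1 the values of 9.01 and 4.66 gave -0.82, with 557 features lower. These genes lay below the 5th percentile of all features in leaves, which was -0.63. The differences of lcyE (-0.46) and y1 (-0.40) lay between the 5th and the 25th percentile, and zep1 (-0.04) was next to the median. The EBL leaf column had a larger total, and scaling to an equal gene-model total moved the median of all features in leaves from -0.01 to -0.23. Under that scaling crtRB1 also passed 2-fold, at -1.08. The share of all features past 2-fold under that scaling is not given here, so the added call has no background.

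In shoots no gene of the 5 passed 2-fold, and the directions were mixed. The log2 difference was 0.29 for crtRB1 and 0.25 for y1, above the 75th percentile of all features (0.16). It was -0.22 for ccd1 and -0.19 for zep1, below the 25th percentile (-0.11), and 0.01 for lcyE, which turned to -0.01 after median-ratio scaling or quantile normalization and to -0.10 with an equal gene-model total. The share of all features past 2-fold in shoots was 0.832%.

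In roots 4 of the 5 genes could be compared, and none passed 2-fold, against 2.48% of features. The log2 difference was -0.47 for ccd1, and 6.01% of features had a lower one. It was -0.28 for lcyE, 0.29 for crtRB1 and -0.01 for y1, which was 0.01 with an equal gene-model total. As plain RPKM the root value of crtRB1 was 2.01-fold higher in EBL and that of lcyE was 2.47-fold lower. All 4 of these values lay below 1 RPKM, where the added 1 shrinks a fold.

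**Figure D3:**
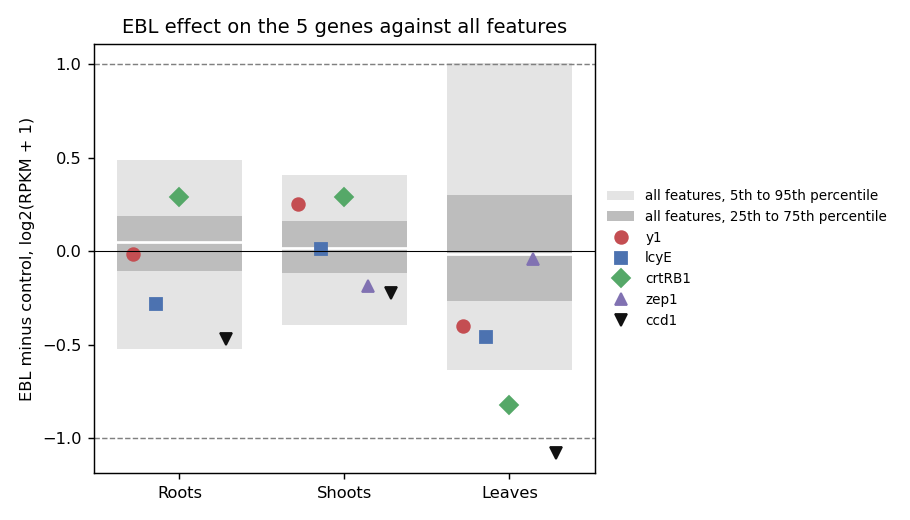
EBL minus control on the log2(RPKM + 1) scale in each organ, with 1 symbol per gene, over the 25th to 75th (dark) and 5th to 95th (light) percentiles of all features and their median (white line). Dashed lines mark 2-fold. In leaves ccd1 and crtRB1 lie below the light band, zep1 has no symbol in roots, and ccd1 is below 0 in each organ.

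As the authors scaled the values, ccd1 was lower in EBL in all 3 organs, as were 14.5% of the 25350 features above 0 in every column. The values of zep1 were lower in all 3 organs too, but its EBL root value is a listed 0, which leaves it out of that set. lcyE, whose shoot difference was 0.01, was also lower in all 3 organs under the 3 other scalings. An EBL effect common to the organs was tested with limma in the same additive model, with organ as a block. Its error is the same residual as in the organ tests, here the disagreement of the EBL difference between organs. The common difference of ccd1 was -0.59 ± 0.19 (log2, SE), with an unadjusted p of 0.0279 and a limma adjusted p of 0.624. Without leaves it was -0.35. The common differences of lcyE (-0.24 ± 0.14), zep1 (-0.10 ± 0.12), crtRB1 (-0.08 ± 0.26) and y1 (-0.05 ± 0.16) had unadjusted p-values from 0.138 to 0.775 by limma. For crtRB1 and y1 the EBL difference was below 0 in leaves and above 0 in shoots. No tested feature passed an adjusted p of 0.05 in this limma test (0% of 26794), while 1973 had an unadjusted p under 0.05.

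Because RPKM is scaled to length, levels of different genes within a column can be set side by side. In control roots ccd1 stood at 3.24 times y1. Other synthesis and cleavage genes are not analysed here, so the ratio speaks of ccd1 and y1 alone. In control shoots the ratio was 0.840 and in control leaves 0.833. In each organ the ratio was lower in EBL, at 2.33 in roots, 0.598 in shoots and 0.516 in leaves. Of the RPKM summed over the 5 genes, ccd1 took 74.8% in roots, 36.1% in shoots and 37.8% in leaves of the control columns, and 68.1%, 30.0% and 27.6% in the EBL columns.

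The ratio of lcyE to y1 was nearly the same in the aerial columns and far lower in roots. In control and EBL it was 0.259 and 0.247 in leaves, 0.309 and 0.260 in shoots, and 0.0521 and 0.0213 in roots. The genes lcyE and crtRB1 stand for single steps, and the other genes of their branches are not analysed here. The ratio of lcyE over crtRB1, in control and EBL, was 14.05 and 9.63 in shoots, and 4.58 and 6.38 in leaves. It was thus lower with EBL in shoots and higher with EBL in leaves. In roots that ratio was 1.46 and 0.294, from values that were all below 1 RPKM. For zep1 over crtRB1, successive steps of the beta branch, the control and EBL ratios were 7.01 and 4.10 in shoots, against 0.970 and 1.82 in leaves. None of these ratios has a replicate error.

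**Figure D4:**
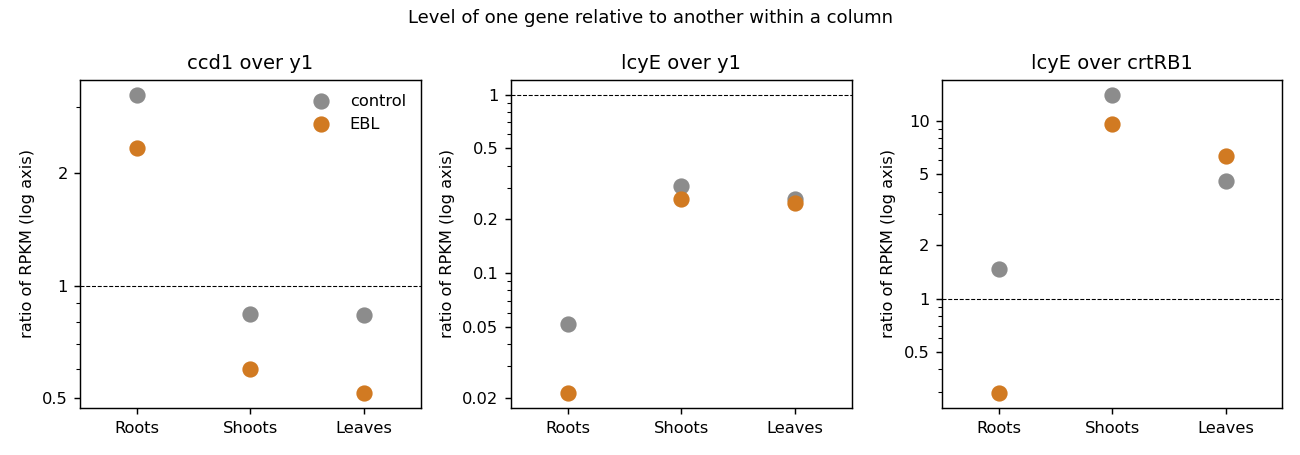
Ratio of RPKM between 2 genes within a column (log axes), by organ, for control and EBL columns, with a dashed line at equal levels. ccd1 exceeds y1 in roots alone, and lcyE stays below y1 throughout, by most in roots.

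The likeness of profiles over the 6 columns was measured as the root mean square distance between log2(RPKM + 1) profiles, each centred on its own mean. Within the 10 pairs of the 5 genes the smallest distances were those of crtRB1 and ccd1 (0.33), y1 and lcyE (0.47) and y1 and zep1 (0.49). The farthest were lcyE and ccd1 (1.36). The distance depends on the size of the differences, which the added 1 shrinks for low genes such as crtRB1. Pearson's r over the same 6 columns, a description that ignores size, gave another order, with 0.990 for y1 and lcyE, 0.986 for lcyE and zep1 and 0.955 for crtRB1 and ccd1. Against the gene models with a mean of at least 5 RPKM, 17898 or 17899 in number, the median distance was 1.99 for y1, 2.36 for lcyE, 1.47 for crtRB1, 1.76 for zep1 and 1.33 for ccd1.

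The gene model nearest to ccd1 was Zm00001d048460, at a distance of 0.09, whose leaf values were 63.2 RPKM in control and 30.6 in EBL. The second was Zm00001d007783 (0.16), at 23.8 and 9.86 RPKM in leaves. For y1 they were Zm00001d033666 (0.06) and Zm00001d006588 (0.06), the latter with control values of 9.72 RPKM in roots, 46.3 in shoots and 162 in leaves. Those nearest to lcyE were Zm00001d027695 (0.15) and Zm00001d017097 (0.16). Next to crtRB1 came Zm00001d027656 (0.15) and Zm00001d051915 (0.17), and next to zep1 Zm00001d046363 (0.11) and Zm00001d017130 (0.12). The sources used here give no name for these identifiers.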

How the data were processed

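The authors deposited RPKM values with 1 column for each group, per the file headers, and the sources used here do not say how replicates were combined. CASAVA 1.8, Trimmomatic 0.33, TopHat2 2.0.13 and Cufflinks 2.2.1 and the build B73 RefGen_v4 are named without roles, per the submitters' processing notes. The 5 genes and all lists were chosen with earlier results of these data known. Effects are differences of log2(RPKM + 1), which understate folds of low genes, called at 2-fold. Within a comparison, features needed 1 RPKM in at least 1 column and both values above 0. The limma fits (limma 3.58.1, R 4.3.3, additive model of organ and treatment, 2 residual degrees of freedom, trended prior) kept values listed at 0. The code was tried on simulated data, with planted effects equal in all organs and in features low in none of them. That trial does not cover genes low in an organ or effects that differ between organs. The planned tests on single libraries could not be run. The nearest gene models were the 2 with the smallest distance. Of 47 pathway symbols and 25 organ marker symbols, 0 could be tied to the table through RefSeq (Zm-B73-REFERENCE-NAM-5.0), which lists none of the table's 43484 gene models. Names therefore were not checked, other pathway genes and sequences, promoter motifs included, are not analysed here, and no coordinates are given. Computations used Python 3.11.15, numpy 2.4.6, pandas 2.3.3 and matplotlib 3.10.9.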

Additional observations from a re-analysis of the deposited data

Results flagged for a closer look

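The EBL effect on crtRB1 had opposite signs in leaves and in the remaining organs. It was -0.82 (log2) in leaves, 0.29 in shoots and 0.29 in roots, so leaves differed from roots by -1.12 and from shoots by -1.11. Effects of opposite sign and at least 1 apart were found for 5.88% of features between leaves and roots and for 3.5% between leaves and shoots. With a pseudocount of 2 the differences were -0.90 and -0.92, short of 1. The values behind it were below 1.5 RPKM in roots and shoots, and the difference was not tested.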

How the results depend on the processing

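The alternatives were pseudocounts of 0.1 and 2, no minimum, a mean of at least 5 RPKM, median-ratio scaling, quantile normalization, scaling to an equal gene-model total and, for limma, no trend; features above 0 in all 6 columns and the EBL columns alone were added after the data were seen. With a mean of at least 5 RPKM only 3 of the 5 genes were tested. By limma all 3 were called higher in leaves than in roots, against 4044 of 18240 features. They were also called higher in leaves than in shoots, against 3986 of 18240. All 3 passed 2-fold for leaves against roots in the control columns, where the share of all features under this minimum is not given here. Scaled to an equal gene-model total, crtRB1 as well as ccd1 was at least 2-fold lower in EBL leaves. The share of all features past 2-fold under that scaling is not given here. The difference of ccd1 in leaves stayed past 2-fold, between -1.39 and -1.04. The common EBL effect was called for none of the 5 genes in all alternatives, including those leaving out an organ. With an organ left out, that of ccd1 lay between -0.77 and -0.35. Among all features tested, 2 were called lower with a pseudocount of 0.1, 3 with an equal gene-model total and 1 without leaves. The common effect of crtRB1 was 0.13 with a pseudocount of 0.1 and 0.29 without leaves, and that of y1 was 0.12 without leaves. In the control columns crtRB1 passed 2-fold from roots to shoots with a pseudocount of 0.1 (1.39). Median-ratio scaling moved the median leaves minus roots difference of all features in the control columns from -0.65 to -0.03. No paired analysis was possible because the columns carry no replicate numbers, and no single replicate could be left out. What depth limits cannot be stated from RPKM.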
